A study of Mus musculus with 11 samples.

Results

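Described here are 10 adipocyte regulators and lipid handling genes, chosen by name, of the 28222 genes in the count table. They comprised the transcription factors Pparg, Cebpa, Cebpb, Cebpd and Zfp423, the lipid handling genes Lpl, Fabp4, Plin2 and Cd36, and the adipokine gene Adipoq. All 10 were found in the table, through the symbols that GENCODE pairs with its Ensembl identifiers. Polyadenylated RNA was measured in 11 libraries of cultured mouse mesenchymal stem cells (MSCs, bone stromal cells able to become osteoblasts or fat cells), which were kept at 2% oxygen in growth medium. Young mice were 3 to 5 months and old mice 18 to 22 months of age. Of the young libraries, 4 belonged to batch A and 2 to batch B, and of the old libraries, 2 belonged to batch B and 3 to batch C. The mice of the study were wild-type C57BL/6 N, and according to its methods MSCs were outgrown from hind limb bone, sorted as CD45-, TER-119-, CD140a+ and Sca-1+ cells and cultured further. Those methods describe an oxygen comparison in young mice, and the same procedure was assumed here. The labels do not state which libraries came from separate mice, so that the spread between libraries may be partly technical, and they do not state what a batch was. Batch B alone held both ages.

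PPARγ, the nuclear receptor encoded by Pparg, and C/EBPα, encoded by Cebpa, are the central transcription factors of fat cell formation and sustain each other's expression. C/EBPβ and C/EBPδ act early, after a hormonal stimulus, and induce both. In differentiated cells PPARγ and C/EBPα switch on genes for fatty acid uptake, lipid droplets and adipokines. In bone marrow, stromal cells that express some of these genes without storing fat are also known, and several of the genes, Cd36 above all, are used by macrophages as well.

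Expression is given in CPM, counts scaled to library totals that were corrected by TMM factors. Libraries held 11969336 to 20315934 counts, and the smallest detectable level, set at 3 counts, was 0.156 to 0.253 CPM. The sorting markers were present in all libraries, with Pdgfra (CD140a) at 109 to 289 CPM and Ly6a (Sca-1) at 270.1 to 778 CPM. Between ages in batch B, 2 of 10 MSC markers fell, beside 2.23% of all genes passing in either direction. Pdgfra fell by 0.86 (edgeR adjusted p 0.0059, SE 0.15), from 236 and 194 to 109 and 128 CPM. Nt5e (CD73) fell by 1.34 (edgeR adjusted p 0.00932, SE 0.25), from 23.3 ± 10.2 to 9.12 ± 0.988 CPM (SD, n = 2). Both were higher in old batch C than in young batch A libraries, where age and batch cannot be told apart. Pdgfra was at 268 to 289 against 164 to 227 CPM there, and Nt5e at 12.59 to 18.3 against 10.7 to 12.57 CPM. In that comparison 3 of the 10 markers passed as higher and 6 as lower, beside 32% and 31.9% of all genes. The 15 macrophage and leukocyte markers all had counts in every library. Their summed level was 863 to 1969 CPM in young batch A, 473 and 999 CPM in young batch B, 999 and 1404 CPM in old batch B and 185 to 220.5 CPM in old batch C libraries, although the sort was for cells without CD45. Of 10 endothelial markers, 9 were in the count table and summed to between 5.57 and 14.4 CPM. Pecam1 and Cdh5 were at no more than 0.588 CPM. Of the 12 mature adipocyte markers, 11 were in the count table. In batch A and B libraries 6 to 9 of them had counts, and in batch C 9 or 10. Their sum was 34.8 to 54.2 CPM in batch C against 8.78 to 20.9 CPM elsewhere. Fabp4 and Adipoq, both among the 10 genes, held 15.9 and 11.45 CPM of the mean sum of 41.8 CPM in batch C. Plin1 and Lipe averaged 5.58 and 5.34 CPM there, and Retn, Cfd, Cidec and Thrsp were at no more than 0.654 CPM. The sum is thus not separate from the 10 genes. Lep (leptin) had no count in 10 of 11 libraries and 1 count in the other. Erythroid markers summed to between 0.0554 and 3.03 CPM. Of 6 myogenic markers, 4 were in the count table and summed to between 26.2 and 64.2 CPM. Most of this was Acta1, with group means of 30.4 to 48.7 CPM. The group means of Des were 0.827 to 3.79 CPM, and Pax7 and Myod1 were at no more than 0.0725 CPM. In RNA of whole cultures, fewer cells of a type and less RNA per cell cannot be told apart.

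The order of the genes was read per length, as CPM divided by the length in kb of the longest transcript with a consensus coding sequence. On that scale Plin2, which coats lipid droplets in most cell types, was among the highest 2 genes in all groups, at 30.1 to 41.6 CPM per kb on average. Cebpb was at 36.4 ± 3.73 CPM per kb in young batch B libraries (SD, n = 2), where its range overlapped that of Plin2 at 34.3 ± 1.41. It came next after Plin2 in young batch A and old batch B libraries, at 30.5 ± 3.51 (SD, n = 4) and 29.4 ± 2.86 CPM per kb (SD, n = 2), and its range overlapped that of Plin2 in batch A, so that the genes are not separated there. Second place was not separated either, since Cebpb overlapped Cebpa in young batch A and Cebpd in old batch B libraries. In old batch C libraries Cebpa was highest, at 46.9 ± 5.31 CPM per kb (SD, n = 3), above Plin2 at 30.1 ± 1.91 and Lpl at 26.3 ± 2.39 CPM per kb. By group mean Adipoq was the lowest of the 10 genes in batches A and B and Cd36 was the lowest in batch C, at 1.11 ± 0.231 CPM per kb (SD, n = 3). In young batch A the range of Adipoq, 0.129 to 2.89 CPM per kb, overlapped Zfp423 at 1.14 to 2.29 and Cd36 at 2.35 to 8.26. Pparg moved from 4.64 ± 0.697 CPM per kb in old batch B (SD, n = 2) to 18.2 ± 0.159 in old batch C libraries (SD, n = 3).

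**Figure D1:**
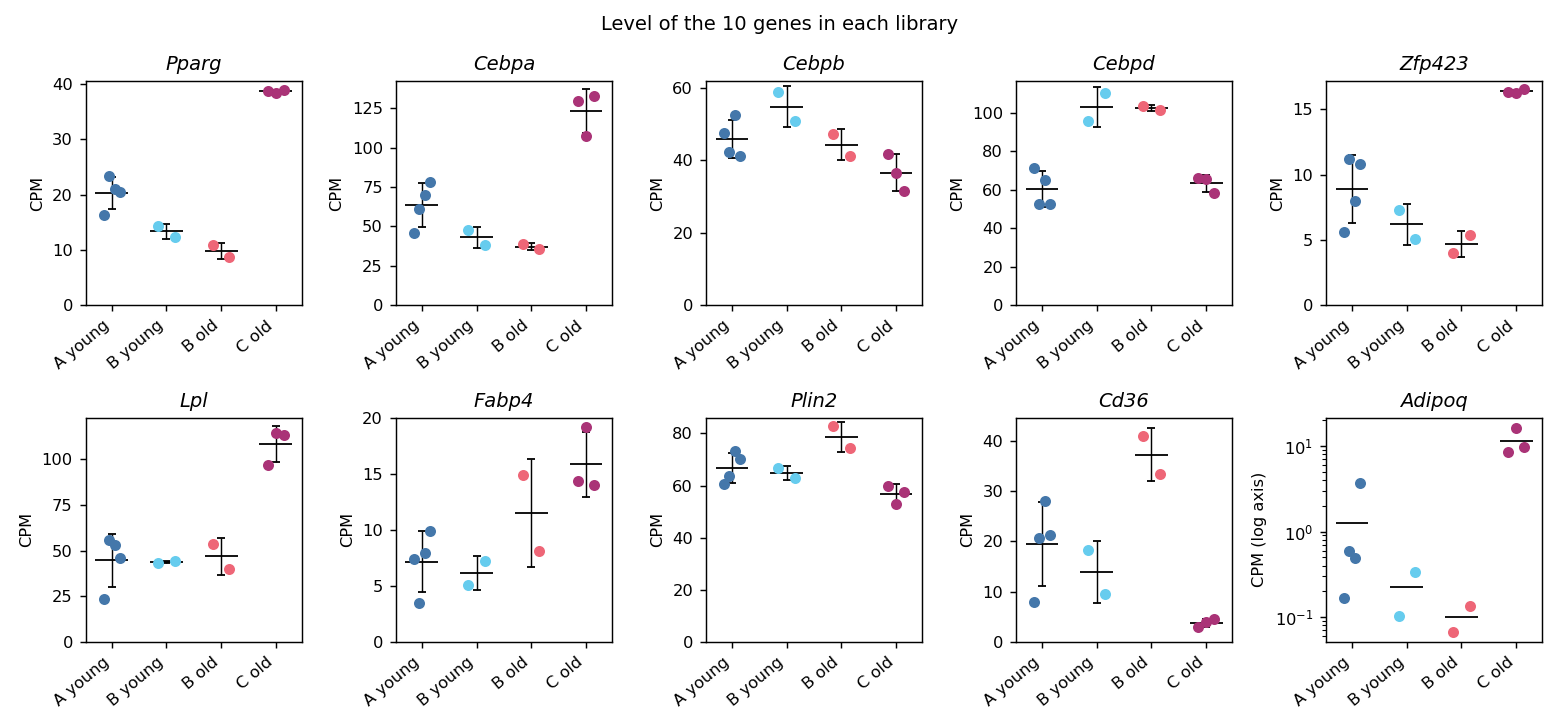
Level of the 10 genes in CPM in the 4 young batch A, 2 young batch B, 2 old batch B and 3 old batch C libraries. Each point is a library, horizontal lines are group means and bars are 1 SD, and the Adipoq panel has a log axis and no SD. The 3 batch C libraries lie above all others for Pparg, Cebpa, Zfp423, Lpl and Adipoq and below all others for Cd36 and Plin2.

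The age comparison was made first, with a batch term, by which the 2 old and 2 young libraries of batch B give the difference, and the spread was estimated from all 11. None of the 10 genes passed an adjusted p-value of 0.05 in edgeR's quasi-likelihood test, in which 2.23% of 16132 genes passed. Limma-trend and DESeq2 also gave 0 of the 10 genes, where 370 and 640 of 16132 genes passed. At an unadjusted p-value under 0.05 there were 4 genes, namely Fabp4, Plin2 and Cd36, which were higher, and Pparg, which was lower in old MSCs, whereas 16.1% of all genes met that criterion. The ages did not overlap in batch B for 5 of the 10 genes, with 3 higher and 2 lower, against 39.7% of all genes (19.2% higher and 20.6% lower). The median log2 fold change was −0.31 for the 5 transcription factors and 0.60 for the 4 lipid handling genes, beside 0.0044 over all genes. In lists described below, it was −0.27 for 20 regulators that promote adipogenesis and −0.17 for 15 that restrain it. It was −0.10 for 16 tested lipid droplet and lipolysis genes and −0.08 for 17 tested genes of fatty acid uptake and binding. The markers of macrophages, which also express Cd36 and Fabp4, had a median of 0.69 with 15 of 15 above 0 in the same comparison, none past the threshold, and their part was not tested. A p-value that misses the threshold in a comparison of 2 with 2 libraries does not show that the level was the same at both ages.

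Among the transcription factors, Pparg (ENSMUSG00000000440, chromosome 6, 115360951 to 115490399, GRCm38) was at 14.3 and 12.4 CPM in young batch B and at 10.9 and 8.81 CPM in old batch B libraries, which did not overlap. Its log2 fold change between ages was −0.44 (edgeR adjusted p 0.207, SE 0.17). Cebpa (ENSMUSG00000034957, chromosome 7, 35119293 to 35121928) was at 47.8 and 38.4 CPM in young batch B and at 38.7 and 35.7 CPM in old batch B libraries, so that both ages overlapped, and its log2 fold change was −0.22 (edgeR adjusted p 0.623, SE 0.19). Zfp423 (ENSMUSG00000045333, chromosome 8, 87661810 to 87959595), a zinc finger protein that marks preadipocytes and acts before Pparg, was at 7.29 and 5.10 CPM in young batch B and at 3.97 and 5.41 CPM in old batch B libraries. Its ages overlapped as well, and the log2 fold change was −0.41 (edgeR adjusted p 0.515, SE 0.29).

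The same 3 transcription factors were far higher in batch C. Pparg was at 38.8, 38.3 and 39.01 CPM in the old batch C libraries, at 20.3 ± 2.87 CPM in young batch A libraries (SD, n = 4) and at 9.86 ± 1.48 CPM in old batch B libraries (SD, n = 2). Within old MSCs Pparg rose by 1.97 on the log2 scale from batch B to batch C (edgeR adjusted p 2.25e-08, SE 0.11). Cebpa, at 129.9, 107 and 133 CPM in batch C, rose by 1.72 (edgeR adjusted p 3.7e-08, SE 0.099), and Zfp423, at 16.3, 16.3 and 16.5 CPM, rose by 1.80 (edgeR adjusted p 6.87e-07, SE 0.15). No batch C library overlapped any other library for these genes. In this comparison 9 of the 10 genes were called, 5 higher and 4 lower, and 64.7% of 15651 genes, 32.1% higher and 32.6% lower, so that a call by itself does not set a gene apart. The groups did not overlap for 8 of the 10 genes, 5 higher and 3 lower, against 76.3% of all genes (38.8% higher and 37.4% lower). These counts include Adipoq among the higher genes. It passed the filter on low counts there through batch C alone, so that its call adds no support. Against young batch A libraries the rise was 1.00 for Pparg (edgeR adjusted p 4.09e-06, SE 0.10), 1.02 for Cebpa (edgeR adjusted p 5.15e-05, SE 0.14) and 0.96 for Zfp423 (edgeR adjusted p 0.000724, SE 0.19), where age and batch cannot be told apart. There 8 of the 10 genes were called, 6 higher and 2 lower, and 63.8% of 15021 genes, 32% higher and 31.9% lower. The groups did not overlap for 8 genes, 6 higher and 2 lower, against 64.5% of all genes (29.5% higher and 35% lower). The macrophage markers moved the other way, with 15 of 15 lower in batch C in both comparisons, and their part in these differences was not tested.

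Within young MSCs, Pparg was also lower in batch B than in batch A (log2 fold change −0.57, edgeR adjusted p 0.0344, SE 0.17), a comparison in which 2 of the 10 genes were called, 1 in each direction, and 18.1% of 14840 genes, 9.39% higher and 8.71% lower. Of the macrophage markers 7 of 15 were also lower in batch B, with a median log2 fold change of −1.14, and their part was not tested. The call was lost when any of 4 single libraries was left out, with adjusted p-values of 0.084 without batch A replicate 2, 0.0853 without batch A replicate 3, 0.076 without batch A replicate 4 and 0.213 without batch B replicate 2. Young batch A replicate 1 was the lowest of its group for Pparg (16.4 CPM), Cebpa (45.8 CPM), Zfp423 (5.59 CPM), Lpl (23.8 CPM) and Cd36 (7.98 CPM). The order of the groups was the same for Pparg, Cebpa and Zfp423, from old batch B through young batch B and young batch A to old batch C. For Cebpa and Zfp423 the neighbours old batch B, young batch B and young batch A overlapped, and for Pparg no neighbours overlapped.

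Because a count per gene does not separate transcripts, the RefSeq start sites of these genes are shown, as the 250 bases before each start (GRCm38.p6). They are given for Pparg at start sites 1 and 3, those with the highest and the lowest GC content of its 3 start sites, for Cebpa, and for Adipoq, the gene with the largest fold change in batch C. Capitals mark every match on either strand to the core of the C/EBP binding site (TTGCNNAA), to the CCAAT box (spelled as its name), to the TATA box (TATAAA) or to the GC box (GGGCGG).
Pparg start site 1, chr6:115360894-115361143, plus strand: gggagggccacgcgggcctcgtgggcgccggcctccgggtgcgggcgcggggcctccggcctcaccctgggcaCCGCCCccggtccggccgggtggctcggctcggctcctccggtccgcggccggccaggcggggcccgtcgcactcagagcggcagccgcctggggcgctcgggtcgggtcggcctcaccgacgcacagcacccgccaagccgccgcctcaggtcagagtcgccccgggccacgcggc
Pparg start site 3, chr6:115421816-115422065, plus strand: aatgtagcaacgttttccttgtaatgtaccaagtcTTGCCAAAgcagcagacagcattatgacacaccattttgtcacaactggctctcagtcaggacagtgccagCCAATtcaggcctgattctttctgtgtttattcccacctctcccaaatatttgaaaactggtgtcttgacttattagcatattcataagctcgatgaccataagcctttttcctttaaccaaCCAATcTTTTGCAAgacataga
Cebpa, chr7:35119043-35119292, plus strand: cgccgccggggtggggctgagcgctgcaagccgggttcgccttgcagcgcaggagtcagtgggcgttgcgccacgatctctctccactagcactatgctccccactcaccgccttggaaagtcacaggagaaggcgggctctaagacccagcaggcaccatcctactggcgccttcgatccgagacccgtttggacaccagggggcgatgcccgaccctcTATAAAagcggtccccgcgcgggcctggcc
Adipoq, chr16:23146286-23146535, plus strand: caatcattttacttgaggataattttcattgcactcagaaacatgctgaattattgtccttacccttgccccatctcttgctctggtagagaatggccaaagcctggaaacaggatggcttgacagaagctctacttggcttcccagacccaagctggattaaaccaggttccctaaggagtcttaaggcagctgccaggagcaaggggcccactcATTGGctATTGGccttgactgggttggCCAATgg
The window of Pparg start site 1 had a GC content of 82.4% and held 1 GC box. That of start site 3 had a GC content of 40.8% and held 2 C/EBP cores and 2 CCAAT boxes, and the C/EBP core nearest to the start covered bases 16 to 9 upstream. The Cebpa window held a TATA box at bases 30 to 25 upstream, and the Adipoq window held 3 CCAAT boxes. Of 32851 RefSeq windows of the same kind, 9.56% held the C/EBP core, 33.8% a CCAAT box, 12.4% a TATA box and 32.7% a GC box. The element DR1, to which PPARγ binds with its partner RXR, was searched as a direct repeat of AGGTCA with a single base between. It was in none of the 10 windows of the 7 genes with an entry and in 0.0335% of all windows. Such matches are letters in these windows and not sites shown to be bound. Cebpd, Lpl and Fabp4 had no entry.

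The early regulators behaved differently from Cebpa. Cebpb (ENSMUSG00000056501, chromosome 2, 167688915 to 167690418) was at 58.8 and 50.8 CPM in young batch B and at 47.3 and 41.2 CPM in old batch B libraries, without overlap, and its log2 fold change was −0.31 (edgeR adjusted p 0.314, SE 0.15). It was at 45.9 ± 5.28 CPM in young batch A (SD, n = 4) and 36.5 ± 5.10 CPM in old batch C libraries (SD, n = 3), and all its group means lay within 0.59 on the log2 scale. The fall of 0.28 from batch B to batch C in old MSCs passed narrowly (edgeR adjusted p 0.0416, SE 0.11), with overlapping groups. The median of genes of like transcript length was −0.31 in that comparison, and the call was lost under 8 of 13 alternatives. The fall of 0.27 from young batch A to old batch C libraries (edgeR adjusted p 0.044, SE 0.11) was equally narrow, and scaling by total counts turned it to 0.027. It was lost with DESeq2 (adjusted p 0.0512) and in edgeR without young batch A replicate 1 (0.0562) or 3 (0.115) and without old batch C replicate 2 (0.0952) or 3 (0.196).

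Cebpd (ENSMUSG00000071637, chromosome 16, 15887286 to 15891031) differed between batches, and no age difference was detected. It was at 95.7 and 110.4 CPM in young batch B and at 103.7 and 101.3 CPM in old batch B libraries, with a log2 fold change of −0.0065 (edgeR adjusted p 0.988, SE 0.14). Young batch A libraries were at 52.5 to 71.2 CPM and old batch C libraries at 58.5 to 66.2 CPM. From batch A to B in young MSCs Cebpd rose by 0.79 (edgeR adjusted p 0.00446, SE 0.14), and from batch B to C in old MSCs it fell by 0.70 (edgeR adjusted p 3.68e-06, SE 0.07). Batches A and C overlapped, and their difference of 0.13 did not pass (edgeR adjusted p 0.313, SE 0.11). With total counts it was 0.42 and passed (edgeR adjusted p 0.00269).

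**Figure D2:**
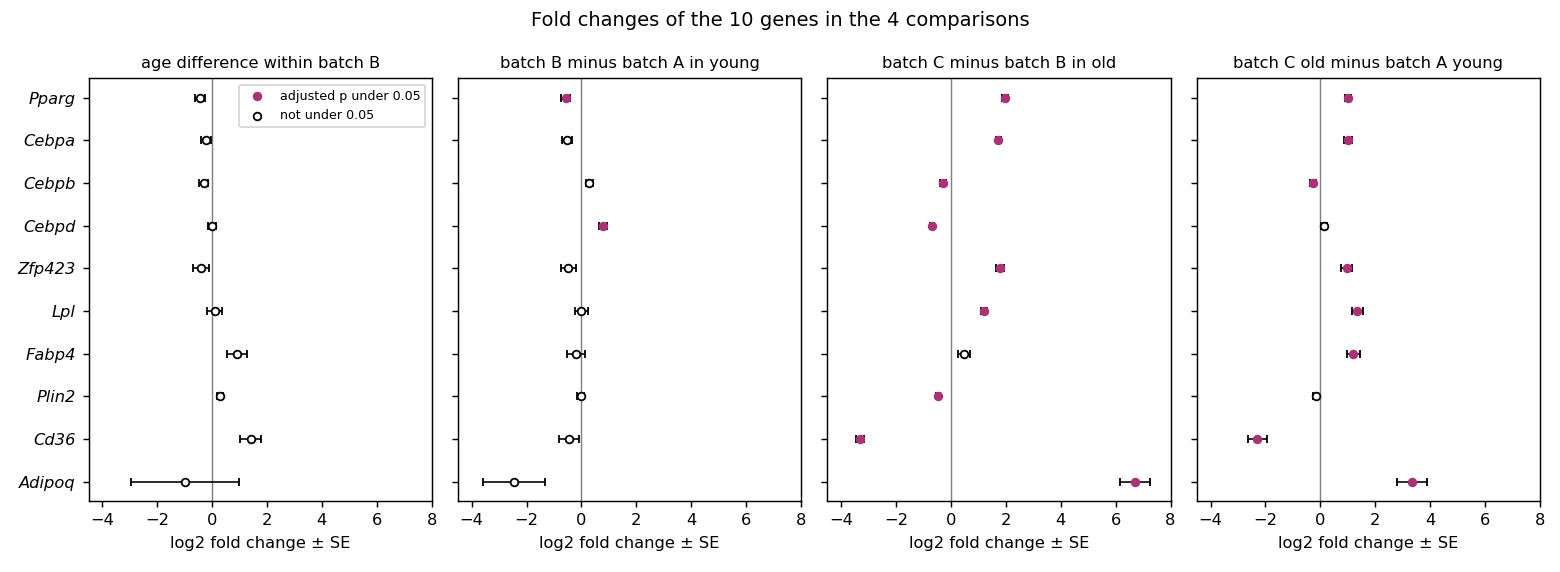
Log2 fold change with its SE for the 10 genes in 4 comparisons of edgeR, with filled points for an adjusted p-value under 0.05. None is filled for age within batch B, 2 for batch B against A in young, 9 for batch C against B in old and 8 for old batch C against young batch A libraries. The Adipoq values for batch B rest on 1 to 5 counts per library, and for batch C against B it was tested through batch C alone.

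Among the lipid handling genes, Lpl (ENSMUSG00000015568, chromosome 8, 68880491 to 68907448), which encodes lipoprotein lipase and releases fatty acids from lipoproteins, was likewise highest in batch C. Lpl was at 43.2 and 44.2 CPM in young batch B and at 53.8 and 39.8 CPM in old batch B libraries, so that the old libraries lay on both sides of the young ones. The log2 fold change was 0.099 (edgeR adjusted p 0.89, SE 0.27). In the old batch C libraries it was at 96.9, 114.5 and 113 CPM, above the 23.8 to 55.9 CPM of all others, and it rose by 1.20 from batch B to C in old MSCs (edgeR adjusted p 2.76e-06, SE 0.12) and by 1.35 from young batch A to old batch C libraries (edgeR adjusted p 9.95e-05, SE 0.21).

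Fabp4 (ENSMUSG00000062515, chromosome 3, 10204088 to 10208576), the fatty acid binding protein of fat cells and macrophages, was at 5.11 and 7.21 CPM in young batch B and at 14.9 and 8.08 CPM in old batch B libraries. The ages did not overlap, and the log2 fold change of 0.91 did not pass (edgeR adjusted p 0.21, SE 0.35). In old batch C libraries Fabp4 was at 14.4, 19.2 and 13.995 CPM, which overlapped old batch B but lay above all young batch A libraries at 3.46 to 9.91 CPM. It rose by 1.20 from young batch A to old batch C libraries (edgeR adjusted p 0.000762, SE 0.24), whereas the difference of 0.46 between batches B and C in old MSCs did not pass (edgeR adjusted p 0.0849, SE 0.22). Without old batch B replicate 1 the latter was 0.97 (edgeR adjusted p 0.000153).

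Plin2 (ENSMUSG00000028494, chromosome 4, 86648386 to 86670060) varied least of the 10 genes, with group means within 0.47 on the log2 scale. It was at 66.6 and 62.8 CPM in young batch B and at 82.8 and 74.5 CPM in old batch B libraries, without overlap, and the log2 fold change was 0.28 (edgeR adjusted p 0.242, SE 0.12). Old batch C libraries were at 60.02, 52.9 and 57.7 CPM, below all other libraries, and the fall from old batch B libraries by 0.47 passed (edgeR adjusted p 0.000195, SE 0.077). The difference of −0.17 from young batch A libraries did not (edgeR adjusted p 0.0881, SE 0.083), but without young batch A replicate 1 it was −0.23 and passed (edgeR adjusted p 0.0189).

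Cd36 (ENSMUSG00000002944, chromosome 5, 17781690 to 17888801), a fatty acid transporter and scavenger receptor, had the largest fold change between ages among the 9 genes with more than 5 counts in all libraries. It was at 18.2 and 9.46 CPM in young batch B and at 41.01 and 33.5 CPM in old batch B libraries, and the log2 fold change of 1.42 just missed the threshold (edgeR adjusted p 0.0708, SE 0.38). Over 20 alternatives the adjusted p-value was between 3.28e-13 and 0.983, the latter without the batch term, and it was under 0.05 in 3 of them. These were the fit without a filter on low counts, the fit without young batch A replicate 1 (edgeR adjusted p 0.00484) and batch B alone (edgeR adjusted p 0.0261). In old batch C libraries Cd36 was at 2.94, 3.93 and 4.5 CPM, below all other libraries, and it fell by 3.31 from batch B to C in old MSCs (edgeR adjusted p 8.24e-09, SE 0.15) and by 2.29 from young batch A to old batch C libraries (edgeR adjusted p 0.000107, SE 0.36). Together with Plin2, it was lower in batch C than in all 8 other libraries, and the other 8 genes were not.

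Because macrophages express Cd36, it was set beside the macrophage markers. Within batch B their sum was 999 and 473 CPM in young and 1404 and 999 CPM in old libraries, 0 of 15 passed between ages, and their log2 fold changes were 0.31 to 1.01 with a median of 0.69. Between batches B and C in old MSCs 15 of 15 were lower, with a median log2 fold change of −2.71 and a range from −3.99 to −1.06. Lyz2 (lysozyme), the highest of them, was at 61.5 to 73.9 CPM in batch C and at 208 to 582 CPM elsewhere, and Ptprc (CD45) was at 3.47 to 5.10 CPM in batch C and at 7.49 to 22.2 CPM elsewhere. Cd36 amounted to 1.82% and 2.00% of the summed markers in young batch B libraries, to 2.92% and 3.35% in old batch B, to 0.925% to 1.64% in young batch A and to 1.53% to 2.43% in old batch C libraries. The part of these cells in the level of Cd36 was not tested.

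**Figure D3:**
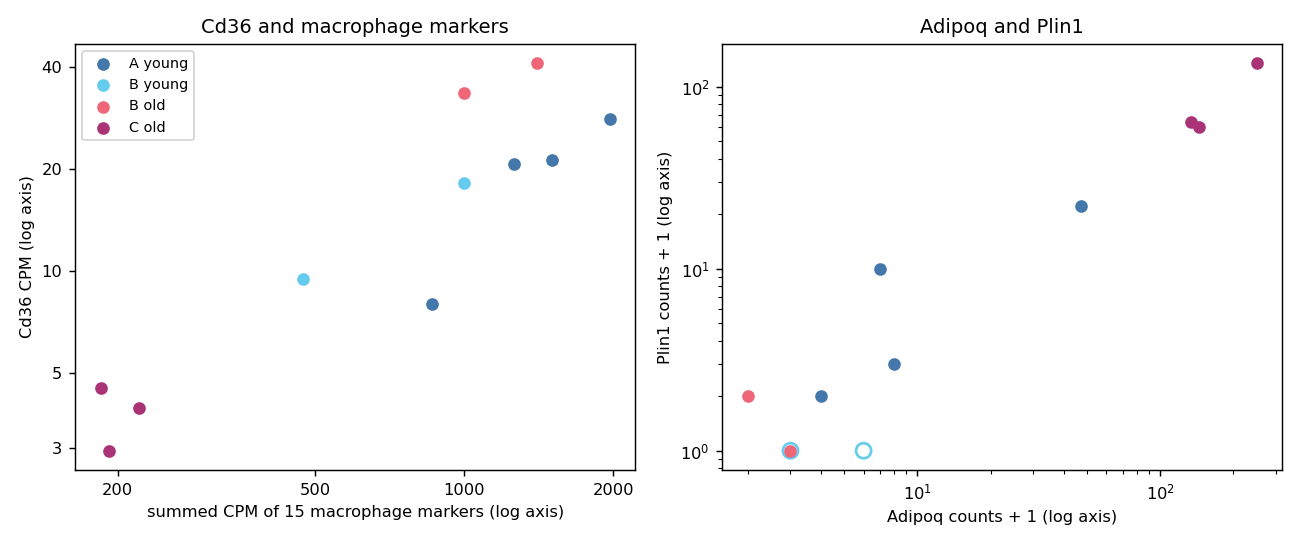
Left, Cd36 in CPM against the summed CPM of 15 macrophage markers, both on log axes, with a point per library. Right, counts of Plin1 against counts of Adipoq, each with 1 added, on log axes, where open rings are young batch B libraries and a ring and a point coincide at 2 Adipoq counts. Both old batch B libraries have more Cd36 for their marker sum than the other libraries, and the 3 old batch C libraries lie highest for both Adipoq and Plin1, followed by young batch A replicate 4.

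Adipoq (ENSMUSG00000022878, chromosome 16, 23146536 to 23158028) encodes adiponectin, a hormone of fat cells that marrow stromal cells also express. It had 143, 249 and 133 counts in the old batch C libraries, or 8.41, 16.3 and 9.64 CPM. The batch B libraries had 2 and 5 counts in young and 1 and 2 counts in old MSCs. All but the library with 5 counts were thus below the smallest detectable level of 3 counts. Young batch A libraries had 3, 7, 6 and 46 counts, so that replicate 4, at 3.74 CPM, stood apart from the other 3 at 0.166 to 0.591 CPM.

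From the pooled counts, Adipoq was 113 times as high in old batch C as in old batch B libraries, with a 95% exact interval from 38.6 to 551 that covers counting error only and rests on 3 counts in batch B. Against young batch A libraries the ratio was 9.98 (95% exact interval 7.66 to 13.2). The corresponding edgeR adjusted p-values were 6.44e-07 and 0.000187, and without young batch A replicate 4 the fitted log2 fold change against batch A was 4.93 instead of 3.34. Adipoq passed the filter on low counts between old libraries through batch C alone. Within batch B the ratio of old to young was 0.487 (95% exact interval 0.0813 to 2.13), so that an age difference was not detectable at this depth. Plin1 (perilipin 1, which coats the large droplets of fat cells) had 59, 133 and 63 counts in batch C, 1, 2, 9 and 21 counts in batch A and at most 1 count in any batch B library. The highest Plin1 and Adipoq counts of batch A were thus in the same library, and those of batch C as well.

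The age differences of batch B and the differences between old batch C and young batch A libraries share no library, and their difference was tested in a fit of the 4 group means. It passed for 6 of the 10 genes, 2 higher and 4 lower, against 35.7% of 16132 genes, 19.8% higher and 15.9% lower. Pparg, Cebpa, Zfp423 and Lpl were lower relative to young MSCs in batch B than between batches C and A, and Plin2 and Cd36 were higher. The 15 macrophage markers were all higher in it, with a median of 3.74, and their part was not tested. Batch is part of this contrast and cannot be told apart from age in it. For Zfp423 the call was lost without old batch B replicate 1 (edgeR adjusted p 0.0581) and without young batch B replicate 1 (0.0709), for Plin2 without old batch B replicate 1 (0.0806) and under scaling by total counts (0.249), and for Lpl without old batch B replicate 2 (0.0636).

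Other genes of fat cell formation and lipid use were taken from lists. Between ages in batch B, where 2.23% of all genes passed edgeR's test, 0 of 20 regulators that promote adipogenesis passed. Of 15 regulators that restrain it, 1 passed, namely Foxo1, which fell by 0.64 (edgeR adjusted p 0.0251, SE 0.14), from 28.3 and 22.3 to 15.8 and 16.8 CPM. Of 16 tested lipid droplet and lipolysis genes, 1 passed. This was Plin4, a droplet coat protein of fat cells, which fell by 1.03 (edgeR adjusted p 0.00878, SE 0.19), from 10.7 and 13.6 CPM to 6.46 and 5.41 CPM. Of 17 tested genes of fatty acid uptake and binding, 2 were higher and 1 was lower. Fabp5, a relative of Fabp4 found in many cell types, rose by 1.36 (edgeR adjusted p 0.0158, SE 0.28), and Acsl4, which activates long fatty acids, rose by 0.64 (edgeR adjusted p 0.0403, SE 0.15). Angptl4, a secreted inhibitor of lipoprotein lipase, fell by 0.76 (edgeR adjusted p 0.0166, SE 0.16). Of 15 tested oxidation genes and PPAR targets, 1 passed, namely Pdk4, which spares glucose by inhibiting pyruvate dehydrogenase and rose by 1.01 (edgeR adjusted p 0.0016, SE 0.14). Of 10 marrow stromal progenitor markers 1 passed. This was Foxc1, a transcription factor of these progenitors, which was named after its value was seen and fell by 0.61 (edgeR adjusted p 0.0059, SE 0.10).

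The direction of 2 of these genes turned across batches. Plin4 was at 56.8, 71.1 and 67.9 CPM in old batch C libraries, above all others at 5.41 to 13.6 CPM, and rose by 3.45 from batch B to C in old MSCs (edgeR adjusted p 2.03e-09, SE 0.13). Fabp5 was at 185 and 150.4 CPM in old batch B libraries, at 27.0 to 35.5 CPM in old batch C and at 41.8 to 96.4 CPM in young libraries, and fell by 2.44 from batch B to C (edgeR adjusted p 6.95e-09, SE 0.11). Both moved in these directions against young batch A libraries too, Plin4 by 2.66 (edgeR adjusted p 2.93e-09, SE 0.11) and Fabp5 by −0.95 (edgeR adjusted p 0.0023, SE 0.22). The difference from the age difference in batch B passed for Plin4 (−3.63, edgeR adjusted p 3.77e-08) and Fabp5 (2.38, edgeR adjusted p 0.000133). Pdk4 and Acsl4 were higher in old batch C than in young batch A libraries, by 0.53 (edgeR adjusted p 0.000326, SE 0.094) and 0.40 (edgeR adjusted p 0.01, SE 0.12). Both fell from batch B to C in old MSCs, by 0.93 (edgeR adjusted p 3.1e-06) and 1.33 (edgeR adjusted p 9.98e-08), and Acsl4 was higher by 1.05 in young batch B than in young batch A libraries (edgeR adjusted p 0.00178). Angptl4 was highest in young batch B libraries, at 70.5 and 90.1 CPM, against 25.2 to 30.7 CPM in batches A and C.

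Between batches B and C in old MSCs, 15 of the 20 promoting regulators were higher and 1 was lower, where 32.1% of all genes were higher and 32.6% lower. They had a median log2 fold change of 0.52 beside 0.023 over all genes. Egr2 (Krox20), an early inducer of Cebpb, had the smallest p-value and rose by 3.67 (edgeR adjusted p 2.98e-09, SE 0.15), from 2.83 and 2.07 CPM to 29.1 to 32.7 CPM. Klf4, which acts with it, rose by 1.22 (edgeR adjusted p 9.28e-08, SE 0.078). Of 14 tested restraining regulators 10 were also higher and 2 lower, with a median of 0.49, among them Klf2 (1.5, edgeR adjusted p 1.61e-08, SE 0.077) and the Notch target Hes1 (2.44, edgeR adjusted p 1.38e-06, SE 0.22). Members of both lists were thus mostly higher. In the lipid droplet list 5 of 16 tested genes were higher and 5 lower, and in the fatty acid uptake list 4 of 17 were higher and 7 lower, to be read beside those shares of all genes. Plin1 was among the 16 tested lipid droplet genes through batch C alone. Of 10 marrow stromal progenitor markers 7 were higher and 0 were lower. No count is given for the mature adipocyte markers, since Adipoq, Plin1 and Cfd had at most 2 counts in the old batch B libraries and were tested through batch C alone. Lipe (hormone-sensitive lipase), named after its values were seen, had 36 and 44 counts in old batch B and 73 to 89 counts in old batch C libraries and rose by 0.99 (edgeR adjusted p 0.00097, SE 0.20). Against young batch A libraries, 7 of the 20 promoting regulators were higher and 6 lower in old batch C libraries, near the shares of all genes in that comparison (32% higher and 31.9% lower). Between batches A and B in young MSCs, Dlk1 (Pref-1, a surface inhibitor of adipogenesis) fell by 1.61 (edgeR adjusted p 0.00463, SE 0.30).

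**Figure D4:**
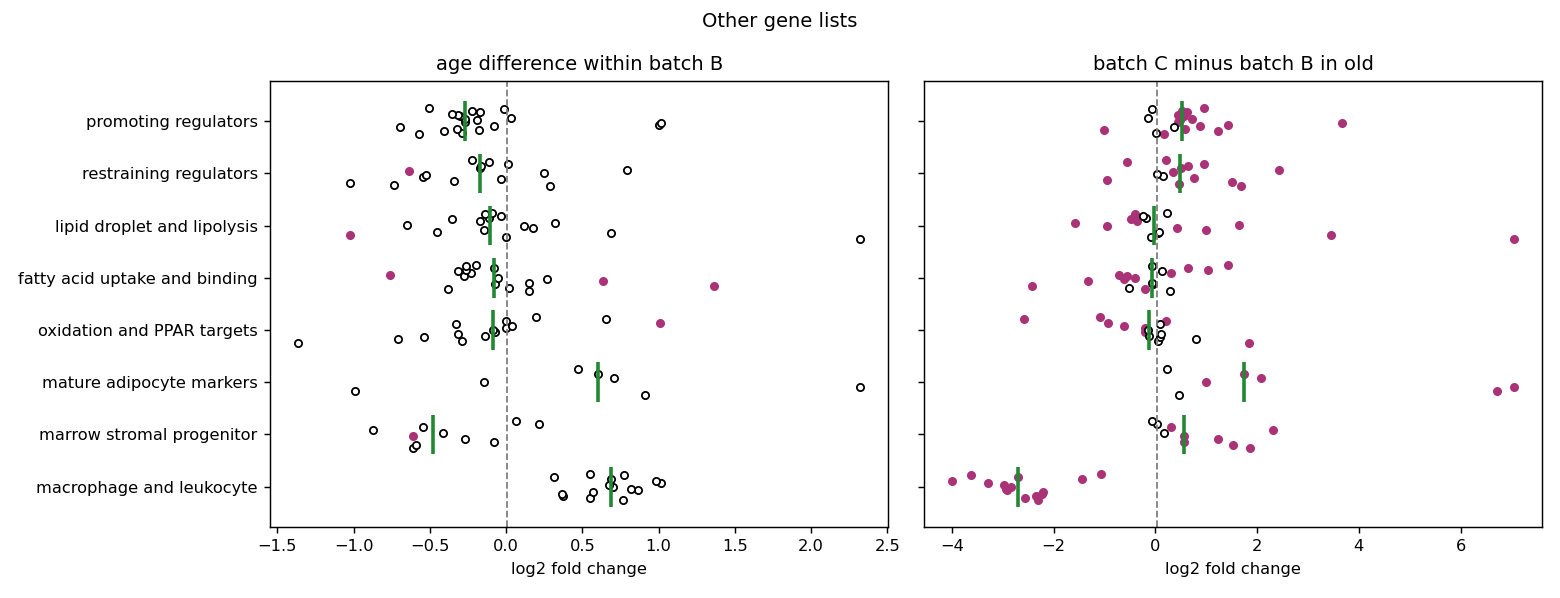
Log2 fold changes of the tested genes of 8 lists for age within batch B (left) and for batch C against B in old MSCs (right). Each point is a gene, filled where the edgeR adjusted p-value was under 0.05, vertical bars are list medians and the dashed line is the median of all genes. Within batch B few points are filled, and in the right panel the 15 macrophage markers lie on the negative side. The values of Plin1, Adipoq and Cfd rest on few counts in batch B and depend on the prior count.

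To find genes with the most similar pattern, log2 CPM was centred on each gene's mean and compared over the 11 libraries with 13139 genes, for the 7 of the 10 genes whose group means spanned at least 1 on the log2 scale. The 13139 genes were those kept in the age test with a mean of at least 1 CPM over the 11 libraries. The measure was the root mean square (RMS) difference, and libraries of the same batch are not independent points in it. The nearest genes were Ppp1r12b (RMS difference 0.13), Per1 (0.14) and Adgrl4 (0.15) for Pparg, and Slc25a45 (0.16), Rarres2 (0.17) and Pparg itself (0.18) for Cebpa. Those of Zfp423 were Snx32 (0.12), Sema6d (0.14) and Dclk2 (0.14), and those of Lpl were Tsga10 (0.19), Crnde (0.20) and Mef2c (0.23). Cd36 was nearest to Clec12a (0.30), Ms4a6b (0.32) and Cd84 (0.34), and Adipoq to Plin1 (0.60), followed by Gm10382 (0.87) and Cxcl2 (0.92). Plin1 averaged 5.58 CPM in old batch C libraries. It averaged 0.668 CPM in young batch A, 0 CPM in young batch B and 0.0337 CPM in old batch B libraries. Plin1 thus met the minimum of 1 CPM through batch C alone, so that its likeness to Adipoq adds no support. The genes nearest to Fabp4 were 1700037C18Rik (0.29), Cenpk (0.34) and Ccne2 (0.34).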

How the data were processed

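The authors deposited a table of raw counts per Ensembl gene and library, without normalisation. According to the methods of the study, single-end reads were aligned with STAR within zUMIs to the mouse assembly mm10 (GRCm38) and counted with featureCounts. Whether strand was used or molecular identifiers were collapsed is not given in the sources used here. Pparg, Cebpa, Cebpb and Cebpd each overlap a gene on the opposite strand (Gm44079, Gm45091, Tmem189 and Spidr), so that reads can be shared.

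Identifiers were matched to GENCODE M21, and 28179 of 28222 genes were found. Differences were tested two-sided in R 4.3.3 by edgeR 4.0.16 (quasi-likelihood F-test), after filterByExpr with a minimum count of 5 and TMM scaling. P-values were adjusted over all genes according to Benjamini and Hochberg, and 0.05 was the threshold. The SE is the fold change divided by the square root of F. Log2 CPM used a prior count of 2. For age, all 11 libraries were fitted with a batch term. Batches B and A were compared in young and batches C and B in old libraries. Old batch C was compared with young batch A libraries alone.

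The alternatives were limma-trend of limma 3.58.1 (used by the study), DESeq2 1.42.0, RLE factors, unscaled totals, no filter, a filter at 10 counts, leaving out each library, the replicate number as a block, no batch term, batch B alone and a fit of the 4 group means. Exact intervals are Clopper-Pearson intervals at 95%. The tests were also run on simulated counts with the same dispersion for all genes and changes placed only in well-counted genes. This does not cover genes with few counts, such as Adipoq, or with a wider spread. All 10 genes were named by rule. From each further list of pathway genes, at most 3 were named for age and 2 for each other comparison, by the smallest p-value among those past the threshold. From marker lists the highest genes and the sorting or defining markers were named. The genes and lists were chosen with earlier results of these data known.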

Additional observations from a re-analysis of the deposited data

Results flagged for a closer look

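In young batch A libraries, Adipoq in replicate 4 stood apart from the other 3 by 0.881 of the whole range, above the critical value of Dixon's test for 4 samples. All 10 genes were looked at in this way, and chance gives such a gap in about 1 of 20 groups of normally distributed values. The gap was read on CPM, from few counts, so that this rate need not hold here. On the log2 scale the 4 libraries were at −1.74, −0.464, −0.668 and 1.95, and the flag depends on the scale.

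The old against young difference in batch B and that between old batch C and young batch A libraries differed for 6 genes in edgeR's test of the difference itself. On the log2 scale the difference was −1.38 for Pparg (edgeR adjusted p 0.00014), −1.17 for Cebpa (0.00162), −1.31 for Zfp423 (0.00962), −1.19 for Lpl (0.012), 0.51 for Plin2 (0.0129) and 3.77 for Cd36 (7.8e-05). Age and batch cannot be told apart in it.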

How the results depend on the processing

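Between ages in batch B, 0 of the 10 genes passed, and 2 passed without a filter (Cd36 and Fabp4) and 2 without the batch term (Lpl and Fabp4), 1 in batch B alone (Cd36) and 0 to 1 when each library was left out. Between batches B and A in young MSCs 2 passed (Pparg and Cebpd), and 1 with total counts, 4 without a filter and 1 to 5 when each library was left out, with 5 without young batch A replicate 1. These counts are to be read beside those of all genes. For age, 1094 of 28222 genes passed without a filter, 2641 of 14689 without the batch term and 123 of 14810 in batch B alone. Between batches B and A, 3020 of 14840 genes passed with total counts and 3327 of 23934 without a filter. Without young batch A replicate 1 it was 2896 of 14741. The labels do not say that equal replicate numbers mark a shared animal or day. The deviations of same-numbered libraries correlated at 0.037 in batch B and at −0.11 and −0.077 between batches A and B. With 2 libraries per group the deviations in batch B mirror each other, so that 0.037 is a single value. Correlations near 0 do not settle whether same-numbered libraries share an animal or day. With the replicate number as a block 1 gene passed between batches B and A, where Pparg was lost, and 0 passed between ages. The numbers for batches C and B (9), old batch C and young batch A (8) and the difference of both differences (6) stayed within 1.5 times under all alternatives run. The 9 include Adipoq, which entered the main fit through batch C alone.

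The fall of Cebpb from young batch A to old batch C libraries became a difference of 0.027 with total counts, which moved the median of all genes from 0.021 to 0.314 there and from 0.023 to 0.216 between batches C and B. Over all genes the 360 calls for age became 640 with DESeq2, 1094 without a filter, 2641 without batch, 123 in batch B alone and 84 (without old batch B replicate 1) to 2007 (without young batch B replicate 2) when a library was left out. The 2686 calls between batches B and A became 729 with the replicate block, 4171 in the fit of 4 group means and 511 to 4031 when young batch B replicate 2 or 1 was left out. Total counts moved the share of higher calls from 31.1% to 44.8% for age, from 51.9% to 66.4% between batches B and A, from 49.6% to 62.9% between C and B, from 50.1% to 72.5% between C and A, and from 55.5% to 29.0% for the difference of both.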
